A study of Homo sapiens with 2 samples.

Results

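The cells described here are human embryonic stem cells with much CDKN1A RNA and an ordinary share of mitochondrial RNA. They were taken from single-cell RNA-seq counts by 1 rule. Among cell barcodes with at least 1000 detected genes and from 4% to below 20% of their UMIs (unique molecular identifiers, 1 per captured RNA molecule) on mitochondrially encoded genes, the 5% with the most CDKN1A UMIs per total UMI were taken within each library. This gave 227 of 4540 such cells in the SO_L1 library and 312 of 6247 in the ASO_L1 library, 539 of the 24729 barcodes in all. They are called CDKN1A-high cells below, and the remaining 4313 and 5935 cells of the same library and mitochondrial range are the other cells. The rule used CDKN1A itself, so the CDKN1A values are a description of the choice and no finding.

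All cells were H9, an established human embryonic stem cell line, held in the naive state in RSeT medium. SO_L1 cells received 25 nM of a 6-FAM-labelled sense oligonucleotide, and ASO_L1 cells received 25 nM of the 6-FAM-labelled antisense oligonucleotide against LINE1, a family of retrotransposons. Both groups were also given 10 nM DZNep (an inhibitor of histone methylation) and 5 nM TSA (a histone deacetylase inhibitor), together with 0.7 µM trans-ISRIB (a drug that blunts the integrated stress response), 5 µM emricasan (a caspase inhibitor) and 10 µM Y-27632 (a ROCK inhibitor), the last 3 of which were removed at 24 h. At 48 h, FAM-positive cells were sorted, so that only cells that held the oligonucleotide entered either library, and RNA was counted with the 10x Genomics 3′ assay. There was 1 library per group and no untreated library was analysed here. A difference between the libraries therefore cannot be told apart from a difference between 2 cultures, sorts or library preparations, and cells of 1 library are not replicates of a condition.

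CDKN1A encodes p21, an inhibitor of cyclin-dependent kinases that holds cells before S phase. Its gene is the textbook target of the transcription factor p53, which is stabilised after DNA damage and other stress and which also switches on its own inhibitor MDM2, genes of apoptosis, DNA repair genes and secreted factors. CDKN1A can also be induced without p53, through stress kinases, histone deacetylase inhibition and TGF-β signalling, and pluripotent stem cells are known for a short G1 phase and for low p21.

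The p53 response element is built from a pair of copies of a degenerate decamer. The decamer was searched in RefSeq promoter windows (build GRCh38.p14, 250 bases before to 50 bases after each transcription start), on the strand of the gene; its reverse complement fits the same definition, so both strands were covered. It was in 2329 of 35116 windows of all genes (6.63%) and in a window of 8 of the 37 listed p53 targets that had one (21.6%). Counted by gene, 8.06% of 27305 genes had it in at least 1 window. The stretches around these 8 matches are shown because of the 28 gene lists used here the p53 targets had the most genes higher in CDKN1A-high cells. That is a plain count, and the p53 list was also the longest, at 46 genes. Some shorter lists had a larger share higher. In ASO_L1 these were 13 of 16 immediate early AP-1 genes, 4 of 5 genes of the 8-cell embryo and 10 of 13 senescence secretome and NF-κB genes. In the last of these lists 2 genes were lower. The p53 targets had 31 of 43 higher, and all genes 14.1%. In SO_L1, 5 of 6 fibroblast genes stood against 30 of 38. The stretches read 5′ to 3′ on the strand of the gene, with each decamer in capitals. In DDB2, a DNA repair gene, 2 decamers lay 1 base apart, a spacing of 0 to 13 bases that was in 10 of all windows (0.0285%).
PLK2, a polo-like kinase, chr5:58460184-58460243, minus strand: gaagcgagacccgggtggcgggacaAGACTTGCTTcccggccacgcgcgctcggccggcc
SESN1, a sestrin, chr6:109009003-109009062, minus strand: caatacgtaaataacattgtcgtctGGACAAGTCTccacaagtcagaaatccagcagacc
FAS, a death receptor, chr10:88991284-88991343, plus strand: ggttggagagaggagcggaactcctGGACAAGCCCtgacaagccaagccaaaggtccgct
DDB2, chr11:47214954-47215003, plus strand: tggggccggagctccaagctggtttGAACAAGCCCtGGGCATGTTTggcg
RPS27L, chr15:63157502-63157561, minus strand: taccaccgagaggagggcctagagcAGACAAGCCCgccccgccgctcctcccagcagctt
AEN, an apoptosis-enhancing nuclease, chr15:88621281-88621340, plus strand: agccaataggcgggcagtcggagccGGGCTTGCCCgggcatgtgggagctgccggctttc
SLC12A4, a potassium-chloride cotransporter, chr16:67964087-67964146, minus strand: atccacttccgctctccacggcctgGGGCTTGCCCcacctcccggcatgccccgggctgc
FDXR, a mitochondrial reductase, chr17:74872971-74873030, minus strand: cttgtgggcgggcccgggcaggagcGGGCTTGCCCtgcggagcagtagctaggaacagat
A match is a description of letters in this window, and no binding was measured. CDKN1A, MDM2 and GDF15 had no match in their windows, which says nothing about p53 and these genes.

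Across the whole mitochondrial range the libraries held 210953176 UMIs (SO_L1) and 367343741 UMIs (ASO_L1). The CDKN1A-high cells themselves held 10917098 and 16221940 UMIs. Their median depth was 45296 UMIs against 45446 in the other cells of SO_L1, and 54517 against 56606 in ASO_L1. Shallow cells were more frequent among them: 36 of the SO_L1 CDKN1A-high cells (15.9%) and 64 of the ASO_L1 ones (20.5%) had under 20000 UMIs, against 6.61% and 3.18% of the other cells. Their median mitochondrial share was also lower, at 8.12% against 9.04% in SO_L1 and 6.72% against 7.46% in ASO_L1. Of the barcode sequences in this range, 159 were in both libraries, and they named 13 SO_L1 and 7 ASO_L1 CDKN1A-high cells. No doublet caller was run; leaving out every cell above the 90th percentile of UMIs is one of the alternatives.

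CDKN1A (ENSG00000124762, chromosome 6, 36676460 to 36687339 on the plus strand; gene positions throughout are GENCODE 29 on GRCh38) stood at 65.6 CPM (UMIs of the gene per 1000000 UMIs, summed over the cells) in the SO_L1 CDKN1A-high cells and at 1.38 CPM in the other cells. The ASO_L1 values were 203 and 11.4 CPM. The same 5% rule therefore chose cells at different levels in the 2 libraries. In SO_L1 the last cell taken had 1 UMI of 39748 (25.16 CPM) and the first one not taken had 1 UMI of 39770 (25.14 CPM), so a cell with a single CDKN1A UMI entered only by being shallower than this. In ASO_L1 the neighbours at the threshold had 11 UMIs of 101988 (107.856 CPM) and 8 of 74182 (107.843 CPM).

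Many SO_L1 CDKN1A-high cells rest on few molecules. Of the 227, 69 had 1 CDKN1A UMI, 52 had 2, 73 had 3 to 5, 26 had 6 to 9 and 7 had 10 or more, with a highest count of 16. Of the 312 in ASO_L1, 29 had 1 UMI, 12 had 2, 31 had 3 to 5, 109 had 6 to 9 and 131 had 10 or more, with a highest count of 297. The share with 1 or 2 UMIs was thus 53.3% in SO_L1 and 13.1% in ASO_L1. Median CDKN1A per cell was 50.3 CPM in SO_L1 and 174 CPM in ASO_L1.

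**Figure D1:**
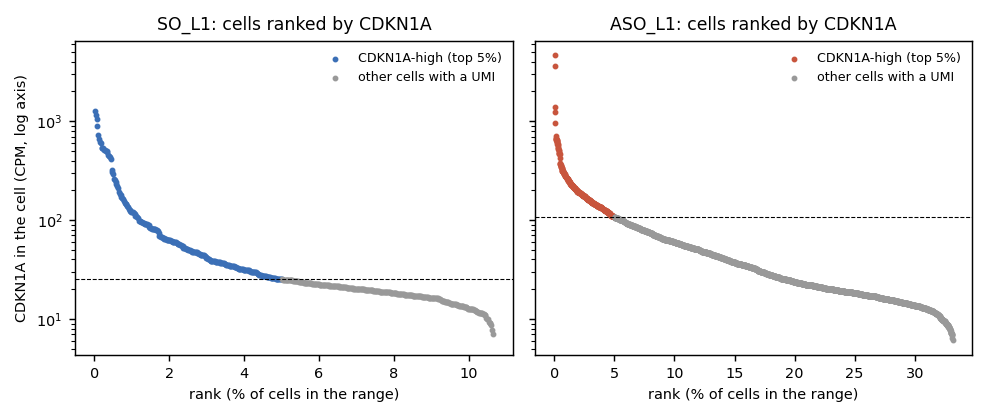
Cells of the 4% to 20% mitochondrial range ranked by CDKN1A CPM per cell (log axis), 1 panel per library, with the lowest CDKN1A-high cell at the dashed line; only cells with at least 1 CDKN1A UMI are plotted. The line lies at 25.16 CPM in SO_L1 and at 107.856 CPM in ASO_L1, and the values run on across it with no gap.

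CDKN1A RNA outside the chosen cells was measured in all remaining barcodes. Among the other cells, 256 (5.94%) in SO_L1 and 1759 (29.6%) in ASO_L1 had at least 1 UMI. In barcodes with fewer than 1000 genes, whose median depths were 860 and 1054 UMIs, 2.96% and 2.59% had a UMI, and the summed level was 26.2 CPM in SO_L1 and 12.2 CPM in ASO_L1. Cells with less than 2% mitochondrial UMIs had 72.3 and 98.9 CPM, with a UMI in 58.1% and 72.4% of cells. Levels of 54.6 and 73.3 CPM were found at 2% to 4% mitochondrial UMIs and of 5.58 and 8.16 CPM at 20% and above. The part of free RNA in single-UMI cells was not tested.

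As a further description, cells were chosen on 8000 randomly drawn UMIs and CDKN1A was then counted in the remaining UMIs of the same cells, which gives no support independent of the choice. In SO_L1 the 123 cells chosen this way, which were 2.87% of the 4290 cells deep enough, had 44.7 CPM in the unused UMIs against 3.17 CPM in the rest. In ASO_L1 the 614 chosen cells (10.1% of 6086) had 88.8 against 11.7 CPM. The intervals given here are exact, are at the 95% level and cover counting error only, leaving out the spread between cells and between libraries. At 1 CDKN1A threshold for both libraries (78.8 CPM, the 95th percentile of the pooled cells), 76 SO_L1 cells (1.67%, exact interval 1.32 to 2.09%) and 464 ASO_L1 cells (7.43%, 6.79 to 8.11%) would be CDKN1A-high.

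**Figure D2:**
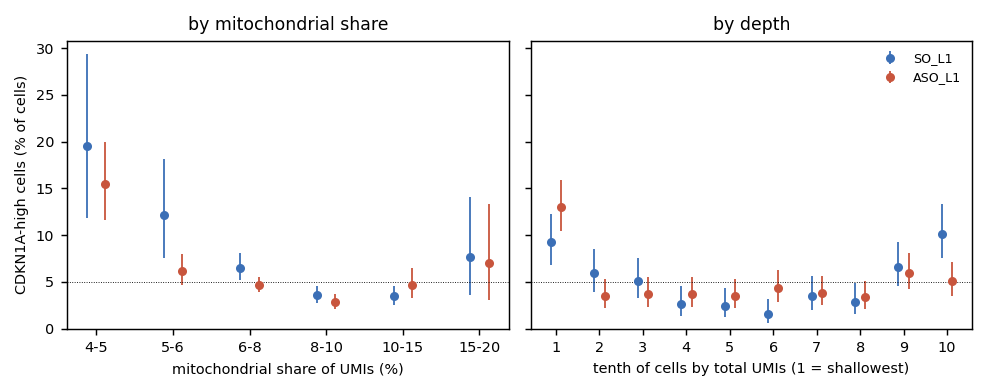
Percent of cells that were CDKN1A-high, by mitochondrial share of UMIs and by decile of total UMIs in each library, with exact 95% binomial intervals; the dotted line is the 5% of the rule. The share was highest at 4% to 5% mitochondrial UMIs and in the shallowest or, in SO_L1, the deepest decile of cells.

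The CDKN1A-high cells were not spread evenly over the range. At 4% to 5% mitochondrial UMIs, 17 of 87 SO_L1 cells (19.5%) and 49 of 317 ASO_L1 cells (15.5%) were CDKN1A-high, and at 8% to 10% the shares were 3.60% and 2.81%. In the shallowest decile of cells 9.25% and 13% were CDKN1A-high. The deepest decile of SO_L1 held 10.1%, whereas its sixth decile held 1.54%. Depth and mitochondrial share thus moved with the choice, and their part in the results was not tested except through the alternatives in which cells were chosen within deciles of UMIs, taken from 6% to 20%, or taken only at 20000 UMIs and above.

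In both libraries p53 target genes were higher in CDKN1A-high cells. A gene was counted as higher or lower when its CPM over all CDKN1A-high cells was at least 1.5 times, or at most 1/1.5 (0.667) of, that over the other cells of the library, among genes with at least 500 UMIs in the 2 sets together; there is no test across 1 library per group. In SO_L1, 30 of the 38 listed p53 targets with enough UMIs were higher and 0 lower, at a median ratio of 2.29. Of all 13644 genes with enough UMIs in SO_L1, 6.11% were higher and 0.623% lower, at a median ratio of 1.0. In ASO_L1, 31 of 43 p53 targets were higher and 0 lower, at a median of 2.09, beside 14.1% of all 15055 genes higher, 18.2% lower and a median of 1.0. Higher in both libraries were 24 of 38 targets, against 2.93% of 13587 genes. CDKN1A was left out of this list, which holds 46 genes, and the members not counted had too few UMIs. Taken only from cells of 20000 UMIs and more, 29 and 30 targets were higher, and from 6% to 20% mitochondrial UMIs, 29 and 27.

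**Figure D3:**
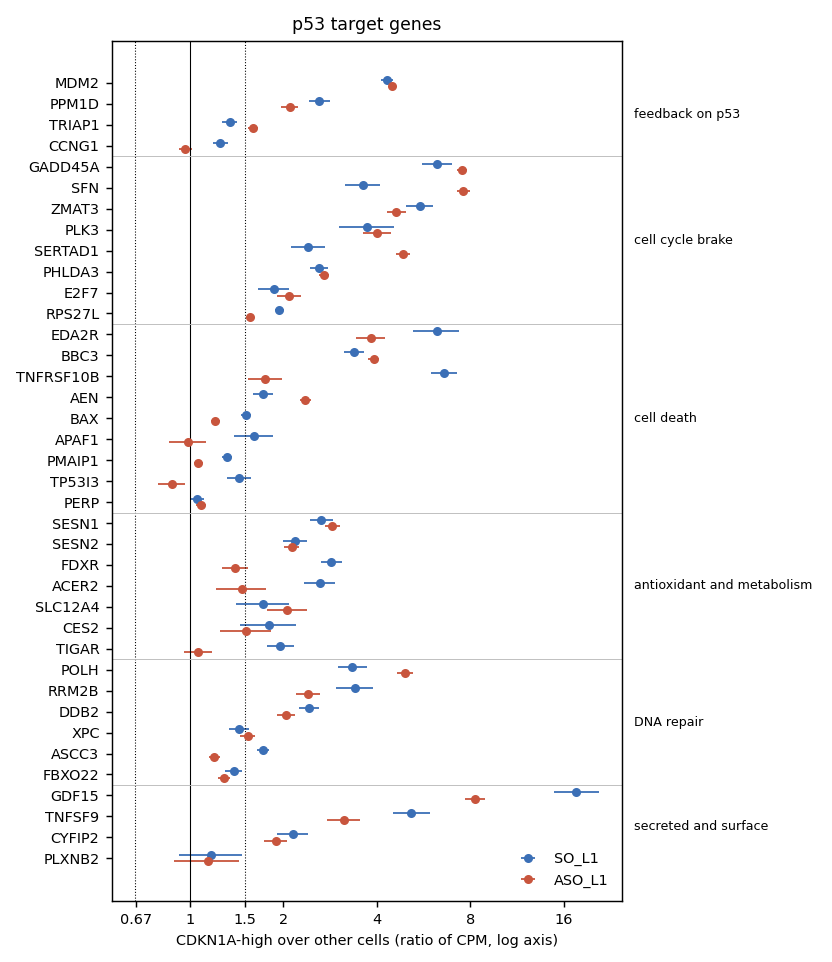
Ratio of CPM in CDKN1A-high cells over other cells (log axis) for the 38 p53 targets with enough UMIs in both libraries, grouped by role, with 95% intervals of counting error, for SO_L1 and ASO_L1; dotted lines mark 0.67 and 1.5. The genes listed under cell-cycle brakes lie to the right of the upper line in both libraries, and several death and metabolism genes, such as PERP, lie near 1.

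Of the feedback regulators of p53, 2 of 4 were higher in both libraries, MDM2 and PPM1D. MDM2 (ENSG00000135679, chromosome 12, 68808176 to 68850686), the ubiquitin ligase that degrades p53, had 225.5 CPM in the SO_L1 CDKN1A-high cells and 52.2 CPM in the others, and 448 against 99.8 CPM in ASO_L1. Its ratios were 4.32 (4.13 to 4.51) and 4.49 (4.37 to 4.60). With every cell thinned to 8000 UMIs, 62.4% of SO_L1 CDKN1A-high cells had an MDM2 UMI against 31.8% of the others, and 85.2% against 47.3% in ASO_L1; without thinning the shares were 89.9% against 81.5% and 94.9% against 92.9%. The thinning left out 22 and 228 cells in SO_L1 and 41 and 120 cells in ASO_L1 that were shallower. PPM1D, the phosphatase that turns the p53 response off, had ratios of 2.61 and 2.09. CCNG1, a cyclin that lowers p53, stood at 1.25 and 0.96, inside the thresholds, and TRIAP1, a small survival protein, at 1.34 and 1.60.

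All 8 genes listed under cell-cycle brakes with enough UMIs in both libraries were higher in both. The group name is only a label of the list, and it does not hold for every member, SERTAD1 among them. GADD45A (chromosome 1, 67685061 to 67688338), a growth arrest and DNA damage protein, had 41.0 against 6.56 CPM in SO_L1 and 244 against 32.4 CPM in ASO_L1, ratios of 6.26 (5.61 to 6.97) and 7.53 (7.26 to 7.81). SFN, the 14-3-3σ protein that holds cells before mitosis, had 25.6 against 7.08 CPM and 141 against 18.5 CPM. Their absolute levels were higher in ASO_L1 in both sets of cells. ZMAT3 (chromosome 3, 179017223 to 179072279), an RNA-binding growth suppressor, was at 46.9 against 8.51 CPM and 61.8 against 13.4 CPM, ratios of 5.51 and 4.63. The ratios of the remaining 5 were as follows: PLK3 3.72 and 4.01, SERTAD1 2.4 and 4.87, PHLDA3 2.61 and 2.71, E2F7 1.86 and 2.09, and RPS27L 1.94 and 1.56. BTG2, an antiproliferative gene, had only 70 UMIs in the SO_L1 CDKN1A-high cells and 53 in the 4313 others, and 76 against 237 in ASO_L1; its ratios of 24.2 (16.7 to 35.3) and 6.94 (5.29 to 9.02) fell outside the count because of the 500-UMI minimum. PLK2 had 155 UMIs and a ratio of 12.1 in SO_L1, also under the minimum, and a ratio of 8.59 in ASO_L1.

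Death genes split. BBC3, which encodes the BH3-only killer PUMA, had 74.1 against 21.9 CPM in SO_L1 and 171 against 43.7 CPM in ASO_L1, ratios of 3.38 (3.13 to 3.64) and 3.92 (3.76 to 4.08). EDA2R and AEN were also higher in both libraries, at 6.23 and 3.82 and at 1.72 and 2.35. TNFRSF10B, the death receptor DR5, was higher in both as well but unequally: 52.7 against 8.01 CPM in SO_L1, a ratio of 6.58 (5.97 to 7.24), and 16.8 against 9.60 CPM in ASO_L1, a ratio of 1.75 (1.54 to 1.98). BAX (chromosome 19, 48954815 to 48961798), the mitochondrial pore former, had ratios of 1.51 and 1.21, just past the threshold in SO_L1 and inside it in ASO_L1. PMAIP1, which encodes NOXA, stood at 1.32 and 1.06, TP53I3 at 1.43 and 0.87, and PERP at 1.05 and 1.08. FAS, with 42 and 87 UMIs in the CDKN1A-high cells, had 9.50 and 3.74 and was under the minimum in SO_L1. In total 4 of the 9 death genes with enough UMIs in both libraries were higher in both.

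Metabolic, repair and secreted targets followed with 4 of 7, 3 of 6 and 3 of 4 members higher in both libraries. The sestrins SESN1 and SESN2, which restrain growth signalling under stress, had ratios of 2.65 and 2.87 and of 2.18 and 2.13. SLC12A4 had 1.72 and 2.06. FDXR stood at 2.85 and 1.40, and TIGAR, which lowers glycolytic flux, at 1.96 and 1.06, so these were higher in SO_L1 only by the threshold; that difference was not tested. Among the repair genes, POLH (a translesion polymerase) had 3.34 and 4.94, RRM2B (a ribonucleotide reductase subunit) 3.40 and 2.4, and DDB2 2.42 and 2.04. GDF15 (chromosome 19, 18374731 to 18389176), a secreted stress cytokine, had 26.4 against 1.5 CPM in SO_L1 and 57.4 against 6.93 CPM in ASO_L1, ratios of 17.6 (14.9 to 20.8) and 8.29 (7.67 to 8.94). At 8000 UMIs per cell a GDF15 UMI was found in 13.2% of SO_L1 CDKN1A-high cells against 1.05% of the others, and in 31.4% against 4.68% in ASO_L1, so most CDKN1A-high cells gave none at this depth. TNFSF9, a surface ligand, had 5.17 and 3.13.

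Of the other inhibitors of the CIP/KIP and INK4 families with enough UMIs, 0 of 4 were higher in SO_L1 and 2 of 4 in ASO_L1, beside 6.11% and 14.1% of all genes, and 0 were lower. CDKN1B, which encodes p27, had ratios of 1.10 and 1.26, and CDKN1C, which encodes p57, 0.973 and 1.63 (1.48 to 1.79). CDKN2D, an INK4 member, was at 1.26 and 1.85.

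The p53 target sum was also followed over steps of CDKN1A, including cells that the rule did not take. Cells were put in 4 sets per library by CDKN1A: others with no UMI (4057 and 4176 cells), others with at least 1 (256 and 1759), the lower-ranked CDKN1A-high cells (114 and 156) and the upper-ranked ones (113 and 156). The summed level of the p53 targets was 1527, 1917, 2517 and 3597 CPM in this order in SO_L1, and 1893, 2567, 3733 and 4708 CPM in ASO_L1. MDM2 went from 49.3 over 86.4 and 138 to 344 CPM in SO_L1 and from 70.5 over 159 and 361 to 572 CPM in ASO_L1. The GDF15 levels were 1.21, 4.92, 11.1 and 47.0 CPM in SO_L1 and 3.44, 14.0, 46.6 and 72.9 CPM in ASO_L1. Each of these 3 measures was higher in every step than in the one before.

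**Figure D4:**
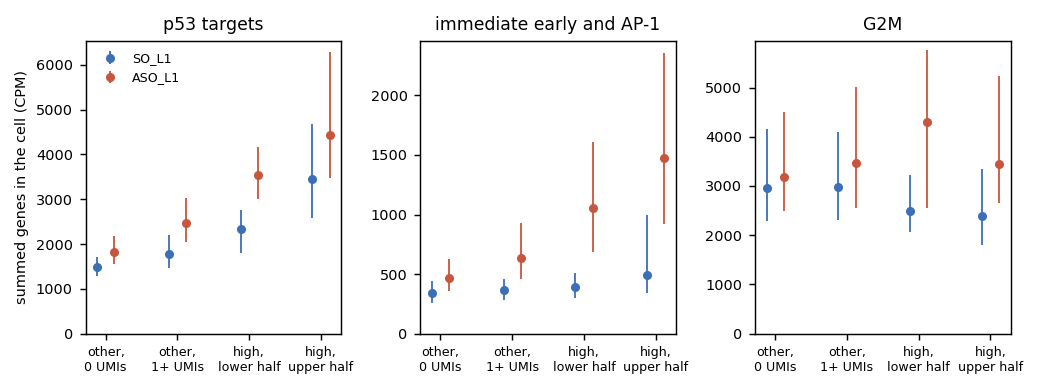
Summed CPM per cell of the p53 targets, the AP-1 genes and the G2/M genes in 4 sets of cells ordered by CDKN1A, for each library; points are medians over cells and bars the quartiles. Medians of the p53 targets run from 1479 to 3462 CPM in SO_L1 and from 1833 to 4426 CPM in ASO_L1.

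The p53 sum was high in some CDKN1A-high cells and not in others. Of the SO_L1 CDKN1A-high cells, 100 of 227 (44.1%, exact interval 37.5 to 50.8%) were also among the 5% of cells with the highest p53 target sum, and in ASO_L1 152 of 312 (48.7%, 43.0 to 54.4%). By construction that set holds 5% of all cells. The next highest shares in the top 5% by another list were 21.6% and 37.5% for the immediate early AP-1 genes. The integrated stress response had 17.6% and 27.9%, and the genes of the 8-cell embryo 15.4% and 26.9%. In ASO_L1 the trophectoderm, naive, heat shock and mesoderm lists had 21.5%, 20.5%, 19.6% and 18.3%. Lower shares were 9.25% and 11.5% for the fibroblast genes, 9.69% and 12.8% for the interferon genes and 2.20% and 3.85% for the S-phase genes. Shallow cells carried more of the p53 sum: CDKN1A-high cells with under 20000 UMIs had 7361 and 8102 CPM of p53 targets, against 2870 and 4011 CPM in deeper ones. Among the other cells the same split gave 2179 and 3145 CPM in shallow cells and 1553 and 2111 CPM in deeper ones, so the CDKN1A-high cells were higher at both depths. With all cells under 20000 UMIs left out the overlap was 49.8% and 48.7%. Within mitochondrial shares of 4% to 6%, 6% to 10% and 10% to 20%, CDKN1A-high cells had 3231, 3001 and 2637 CPM in SO_L1 and 4289, 4041 and 4025 CPM in ASO_L1, against 1968, 1558 and 1503 CPM and 2402, 2077 and 1880 CPM in the others.

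Stress lists other than p53 also held members that were higher. Their counts are to be read beside 6.11% (SO_L1) and 14.1% (ASO_L1) of all genes higher, and 0.623% and 18.2% lower. The immediate early AP-1 list holds genes induced within minutes of many stimuli, transcription factors among them. In SO_L1, 7 of 12 were higher and 1 lower (median 1.60), and in ASO_L1 13 of 16 were higher (median 2.83). Higher in both were 6 of 12: JUN (1.78 and 2.64), JUND (1.64 and 2.04), KLF6 (1.59 and 3.03), IER3 (2.35 and 3.77), ATF3 (3.47 and 4.04) and FOSL1, which had ratios of 8.31 and 4.86. MYC was the lower one in SO_L1, at 0.663, and stood at 1.0 in ASO_L1. By cell, 21.6% of SO_L1 and 37.5% of ASO_L1 CDKN1A-high cells were in the top 5% by the AP-1 sum.

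The integrated stress response, by which ATF4 is translated when eIF2α is phosphorylated, was unequal across its members. DDIT3, which encodes the death-associated factor CHOP, had 40.3 against 5.67 CPM in SO_L1 and 208 against 56.9 CPM in ASO_L1, ratios of 7.1 (6.35 to 7.94) and 3.65 (3.52 to 3.79). PPP1R15A, the phosphatase subunit GADD34, stood at 2.50 and 3.99, and TRIB3 at 3.07 and 2.52. ATF4 stood at 0.997 and 1.34, HSPA5, the chaperone of the unfolded protein response, at 1.15 and 1.21, and SLC7A11, the cystine transporter, at 1.59 and 0.677. In all, 9 of 24 members were higher and 0 lower in SO_L1 (median 1.25), and 12 of 26 higher and 1 lower in ASO_L1 (median 1.39). Of all genes, 6.11% and 14.1% were higher and 0.623% and 18.2% lower. Both groups had received trans-ISRIB for the first 24 h.

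Heat shock genes differed between the libraries in count. In ASO_L1 7 of 12 were higher (median 1.59) and in SO_L1 2 of 11 (median 0.99), with HSPA1A at 1.76 and 2.84 in SO_L1 and ASO_L1 and HSP90AB1 at 0.990 and 1.02. Interferon-response genes were higher in 4 of 17 cases in SO_L1 and in 8 of 19 in ASO_L1, where 1 was lower. The shares of all genes higher were 6.11% and 14.1%, and of all genes lower 0.623% and 18.2%, so the libraries' counts have unequal backgrounds. ISG15, a ubiquitin-like modifier, had ratios of 3.09 (2.89 to 3.30) and 3.10 (2.97 to 3.23), but 1 cell gave 32.6% of the ISG15 UMIs of the SO_L1 CDKN1A-high cells, and 7.31% came from 1 cell in ASO_L1. IFITM3, which is abundant in stem cells, stood at 0.961 and 0.804. No single cell weighed as much for MDM2, where the largest contribution was 3.45% and 1.43%, or for GDF15, at 7.64% and 3.97%.

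Of the BCL2 family outside the p53 list's direct count, BIK (3.06 and 3.47) and HRK (2.08 and 2.05), which like BBC3 are BH3-only killers, were higher in both libraries. The survival members BCL2L1 and MCL1 stood at 1.02 and 0.87 and at 1.10 and 1.82. BID, a BH3-only protein cut by caspases, stood at 0.82 in SO_L1 and was lower in ASO_L1 at 0.440. Both groups had received the caspase inhibitor emricasan until 24 h.

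Cell-cycle genes were counted beside 6.11% of all genes higher and 0.623% lower in SO_L1 and 14.1% and 18.2% in ASO_L1. Of the G2/M genes, 0 of 39 were higher and 1 was lower in SO_L1 (median 0.83), and 7 were higher and 1 lower in ASO_L1 (median 1.08). The lower one in SO_L1 was MKI67, the proliferation marker, at 0.658 (0.598 to 0.722), and it stood at 0.926 in ASO_L1. CDC20, the activator of mitotic exit, was at 0.823 in SO_L1 and higher at 2.40 in ASO_L1, and CENPE, a mitotic motor, was at 0.873 and lower at 0.259. Of the S-phase genes, 0 of 34 were higher or lower in SO_L1 (median 0.89), and 0 were higher and 6 lower in ASO_L1 (median 0.96), among them UHRF1, which maintains DNA methylation (0.678 and 0.613 in SO_L1 and ASO_L1).

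Across the 4 sets ordered by CDKN1A, the G2/M sum in SO_L1 was 3395, 3340, 2827 and 2674 CPM, whereas in ASO_L1 it was 3738, 4007, 4498 and 4469 CPM. The S-phase sum went from 2410 to 2096 CPM in SO_L1 and from 2352 to 2095 CPM in ASO_L1. MKI67 went from 64.6 to 39.1 CPM in SO_L1 and from 51.3 to 49.1 CPM in ASO_L1. From the first to the last set the G2/M sum thus fell in SO_L1 and rose in ASO_L1, where the last step brought no further rise. Medians over cells were 2950, 2971, 2500 and 2383 CPM in SO_L1. In ASO_L1 they were 3187, 3476, 4294 and 3446 CPM, so the upper-ranked CDKN1A-high cells lay near the other cells. This difference between the libraries has no replicate check. In the top 5% by G2/M sum were 3.08% of SO_L1 CDKN1A-high cells and 14.1% of ASO_L1 ones. Of the cyclins and their kinases, 0 of 18 were higher or lower in SO_L1, and 0 of 19 were higher and 3 lower in ASO_L1, with CCND1 at 0.919 and 0.629 and CDK6 at 0.944 and 0.282.

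General pluripotency genes were all inside the thresholds in SO_L1 and partly lower in ASO_L1. POU5F1, the core pluripotency factor OCT4, had 914 against 947 CPM in SO_L1 and 810 against 959 CPM in ASO_L1, ratios of 0.966 and 0.845. In SO_L1 0 of 19 general pluripotency genes were higher or lower (median 0.90), beside 0.623% of all genes lower, whereas in ASO_L1 9 of 19 were lower and 0 higher (median 0.71), beside 18.2%. SOX2 stood at 0.853 and 0.50, NANOG at 0.813 and 0.622, and TERF1, a telomere protein, at 0.854 and 0.338. DNMT3B, a DNA methyltransferase, had 381 against 524 CPM in SO_L1 and 148 against 411 CPM in ASO_L1, ratios of 0.727 (0.705 to 0.750) and 0.361 (0.347 to 0.376). The summed level of the list went from 6687 to 5554 CPM over the 4 sets in SO_L1 and from 6510 to 3968 CPM in ASO_L1.

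Of the naive-state genes, 4 of 16 were higher and 0 lower in SO_L1 (median 1.17), and 9 of 17 higher and 2 lower in ASO_L1 (median 1.75). Of all genes, 6.11% and 14.1% were higher and 0.623% and 18.2% lower. ALPG, a placental-type alkaline phosphatase, had 125 against 12.4 CPM in SO_L1 and 718 against 97.2 CPM in ASO_L1, ratios of 10.0 (9.37 to 10.7) and 7.39 (7.24 to 7.55), with 14.3% and 4.80% of its UMIs in the CDKN1A-high cells from 1 cell. CD70 (2.32 and 3.69) and SUSD2 (1.62 and 1.98), a surface marker of naive cells, were higher in both, while DPPA5 stood at 0.856 and 0.510 and FGF4 at 0.914 and 0.457. Of the primed-state genes 2 of 13 were higher in SO_L1, and 1 of 16 was higher and 8 lower in ASO_L1, where 18.2% of all genes were lower, with PTPRZ1 at 0.875 and 0.318. Of the genes of the 8-cell embryo, 1 of 2 with enough UMIs was higher in SO_L1 and 4 of 5 in ASO_L1 (CCNA1, KHDC1L, TPRX1 and FAM151A), and 0 were lower. CCNA1, the germline cyclin A1, had 45.9 against 5.58 CPM in SO_L1 and 321 against 35.8 CPM in ASO_L1. Its ratios were 8.22 and 8.98, and 1 cell gave 29.9% of the UMIs in the SO_L1 CDKN1A-high cells and 9.01% in ASO_L1. The sum of the list over the 4 sets ordered by CDKN1A was 32.6, 33.4, 36.5 and 175 CPM in SO_L1. In ASO_L1 it was 57.3, 131, 328 and 654 CPM. CCNA1 alone went from 5.56 to 100 CPM and from 17.4 to 509 CPM between the first and last sets. Medians over cells of the list sum moved less, at 24.5, 24.7, 28.5 and 34.6 CPM in SO_L1. The ASO_L1 medians were 33.1, 35.8, 44.4 and 69.5 CPM. In the top 5% by this list were 15.4% and 26.9% of CDKN1A-high cells. ZSCAN4, the defining marker of that state, had 3 and 11 UMIs in all CDKN1A-high cells. A ZSCAN4 UMI was in 1.32% of SO_L1 CDKN1A-high cells against 0.0927% of the others, and in 2.88% against 1.10% in ASO_L1. Its ratios of 13.7 and 2.27 rest on these few UMIs.

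Markers of other lineages were also counted in the CDKN1A-high cells. Of all genes, 6.11% (SO_L1) and 14.1% (ASO_L1) were higher, and 0.623% and 18.2% were lower. The defining trophectoderm factors had few or no UMIs in the CDKN1A-high cells. Over all such cells of SO_L1 and ASO_L1, GATA3 had 3 and 8 UMIs, CDX2 0 and 2, TFAP2A 1 and 7 and HAND1 3 and 8. A GATA3 UMI was in 1.32% of SO_L1 CDKN1A-high cells against 0.441% of the others, and in 2.24% against 0.842% in ASO_L1. Its ratios of 2.62 and 2.99 rest on these few UMIs. Of the trophectoderm list, 3 of 8 genes in SO_L1 and 5 of 11 in ASO_L1 were higher and 0 lower, among them the epithelial factor ELF3 (1.95 and 3.18), while the keratin KRT18 stood at 0.937 and 1.14. Leaving out all cells with a GATA3, TFAP2A or HAND1 UMI left 30 and 31 p53 targets higher. Of the mesoderm genes, 2 of 5 were higher and 0 lower in SO_L1, and 3 of 5 higher and 2 lower in ASO_L1 (PDGFRA at 0.555 and KDR at 0.340). Of the primitive endoderm genes, 0 of 8 were higher or lower in SO_L1, and 2 of 8 were higher and 3 lower in ASO_L1 (PDGFRA, COL4A2 at 0.484 and LAMA1 at 0.647). CER1, a secreted Nodal antagonist, had 3.62 and 3.77 in SO_L1 and ASO_L1 and TWIST1 3.87 and 3.51, while TBXT, the defining mesoderm factor, had 2 and 3 UMIs. Of the fibroblast genes 5 of 6 and 4 of 6 were higher, with S100A4 at 2.35 and 2.72 and VIM at 1.57 and 1.77, while DCN and LUM, which mark fibroblasts, had 0 UMIs in the CDKN1A-high cells of both libraries. At these depths 0 UMIs says only that the level was not detectable.

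**Figure D5:**
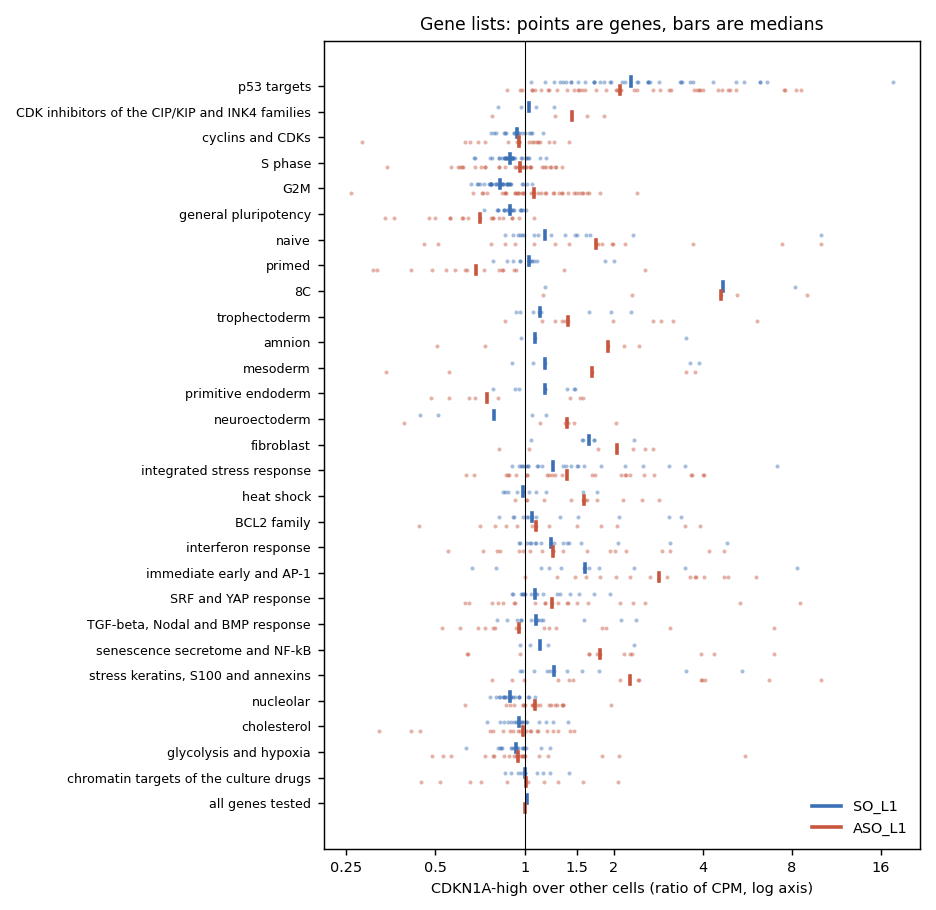
Ratio of CPM in CDKN1A-high over other cells (log axis) for every gene with enough UMIs in each list and for all genes, by library; points are genes and bars list medians. The p53 targets have medians of 2.29 and 2.09, and the median over all genes is 1.0 in each library.

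Other genes were named by the rule of the highest and lowest ratios shared by both libraries. S100A14, a calcium-binding protein of epithelia, had 22.2 against 1.95 CPM in SO_L1 and 61.3 against 12.7 CPM in ASO_L1, ratios of 11.4 (9.67 to 13.4) and 4.82 (4.49 to 5.16). TNFRSF10D, a decoy receptor for the death ligand TRAIL, had 6.88 and 4.94, and PLEKHH3 5.39 and 4.75. From the list of keratins and S100 proteins, S100A6 had 5.41 and 3.95, ANXA3 3.50 and 2.43 and the hyaluronan receptor CD44 1.79 and 3.98; 4 of 11 and 8 of 14 of that list were higher and 0 lower, beside 6.11% and 14.1% of all genes higher, with TMSB10 at 0.977 and 0.908.

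Genes that were lower in both libraries were few, 36 of 13587 (0.265%). HES5, a Notch target of neural progenitors, had ratios of 0.445 and 0.391. The other leading ones by the same rule were near the threshold in SO_L1 and further below it in ASO_L1: LYAR (0.729 and 0.380), a nucleolar protein, PPP2R2B (0.711 and 0.294), PRKCA (0.707 and 0.336), DLEU7 (0.642 and 0.368) and HMGA2 (0.701 and 0.495), a chromatin architectural protein. Of these 6, HES5 and DLEU7 passed the threshold in both. The genes higher in both, 398, were 48.4% of those higher in SO_L1 and 25.8% of those higher in ASO_L1 among the genes with enough UMIs in each; the 36 were 45.6% and 1.40% of those lower. A further 0.633% of genes passed the threshold in opposite directions in the libraries.

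CDKN1A-high cells of this range differed from the cells with less than 2% mitochondrial UMIs, which also had high CDKN1A (1857 cells in SO_L1 and 2531 in ASO_L1). With mitochondrial genes left out of the totals, CDKN1A stood at 0.986 and 2.20 of its level there, which for CDKN1A again describes how the cells were chosen. Beside 2.01% of 11345 genes higher and 5.63% lower in SO_L1, and 0.97% of 13097 higher and 10.8% lower in ASO_L1, 8 of 13 and 11 of 16 keratin and S100 genes were lower and 0 higher, with S100A6 at 0.188 and 0.260. The p53 targets had medians of 0.802 and 1.06, with 6 of 41 and 2 of 43 lower. Interferon genes were lower in 11 of 19 and 4 of 18 cases, and fibroblast genes in 4 of 6 in each. Genes of the 8-cell embryo were lower in 2 of 3 and 9 of 11 cases (medians 0.378 and 0.291). Naive-state genes were lower in 4 of 14 and 4 of 19, ALPG among them in both libraries. In these 2 lists 0 were higher. Of the integrated stress response, 8 of 25 and 1 of 25 were lower and 1 higher in each. POU5F1 stood at 1.04 and 1.43.

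Between the libraries, CDKN1A-high cells of ASO_L1 over those of SO_L1 had 20.7% of 10755 genes higher and 25.3% lower. Here a gene needed 200 UMIs over both sets of CDKN1A-high cells. In the other cells, where the minimum was 500 UMIs, 9.63% of 16252 genes were higher and 11.5% lower. The CDKN1A-high sets held far fewer UMIs, so their ratios carry more counting error. These shares, and the list counts below, are therefore not like for like. The 2 CDKN1A-high sets were chosen at different CDKN1A levels, which cannot be told apart from the oligonucleotide here. MDM2 had a ratio of 1.99 between the CDKN1A-high sets and of 1.91 between the other cells, GDF15 2.18 and 4.62, GADD45A 5.94 and 4.94 and TNFRSF10B 0.318 and 1.20. Of the p53 targets 13 of 39 were higher and 5 lower in the ASO_L1 CDKN1A-high cells (median 1.27), against 18 of 44 higher and 2 lower in the other cells (median 1.37). AP-1 genes were higher in 13 of 14 cases (median 3.51), against 13 of 16 (median 2.81) in the other cells. G2/M genes were higher in 20 of 39 (median 1.5), against 3 of 39 (median 1.12). IL24, a cytokine, had the highest ratio by the lower interval bound, with 2 UMIs in SO_L1 and 423 in ASO_L1 CDKN1A-high cells. It met the minimum of 200 summed UMIs only through ASO_L1, where it is high. The ratio of IL24 was 142 (39.2 to 1179), and 80.3 between the other cells. CCR7, a chemokine receptor, followed at 41.6 and TM4SF19, a tetraspanin-like membrane protein, at 30.2. The minimum counts the UMIs of both sets together, so at such ratios ASO_L1 alone can meet it for these genes too. The general pluripotency genes were lower in 5 of 19 cases between the CDKN1A-high sets and in 0 of 19 between the other cells.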

How the data were processed

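Per the labels, 2 libraries of FAM-sorted H9 cells, 1 per oligonucleotide, were made with the 10x Genomics 3′ v3 kit. The authors deposited UMI counts (whole numbers, not normalized) for each gene in each barcode. Cell Ranger 7.1.0 is named by the matrices' own headers, and the build hg38 by the submitters' processing notes. The annotation release, the treatment of intronic reads and the way barcodes were called as cells: not given in the sources used here.

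Barcodes with 1000 genes or more and 4% to below 20% mitochondrial UMIs were kept (10917098 and 16221940 UMIs in the CDKN1A-high cells). The CDKN1A-high cells and the gene lists (563 genes, all matched by symbol or an older symbol) were chosen with earlier results of these data known. UMIs were summed over cells; ratios of CPM have exact conditional binomial 95% intervals, and shares Clopper-Pearson ones. With 1 library per group there is no test, and a gene is called at 1.5-fold among genes with 500 UMIs or more. Between the 2 sets of CDKN1A-high cells the minimum was 200 UMIs. The largest contribution of 1 cell to a gene's UMIs was also counted.

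Named were the 10 highest and 10 lowest genes by the interval bound nearest 1 in the less extreme library (at least 500 UMIs in each; clone-style, LINC and mitochondrial names left out), 2 of largest ratio and 2 of most UMIs per list, a set of 20 genes, and, between libraries, the 5 highest and 5 lowest with 200 UMIs or more. The p53 list is given by role, and other list members were chosen after their values were seen. A gene of the named set is not reported here. Alternatives: 12 planned and 3 chosen after seeing the data. Sums, ratios and intervals were tested on simulated data with 200 changed genes (Python 3.11.15, numpy 2.4.6, scipy 1.17.1, pandas 2.3.3, matplotlib 3.10.9). Promoter sequences are from RefSeq (GRCh38.p14).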

Additional observations from a re-analysis of the deposited data

Results flagged for a closer look

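Of the genes with enough UMIs in both libraries, 86 (0.633%) were called in opposite directions, 85 of them higher in the SO_L1 CDKN1A-high cells and lower in the ASO_L1 ones. Examples, chosen after their values were seen, were PWRN4 (2.30 in SO_L1 and 0.396 in ASO_L1) and KCNMB2 (2.06 and 0.424); none of the 86 was in a gene list, and the difference between the libraries was not tested.

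CDKN1A RNA was also above the limit of a count of 0 in barcodes that no comparison used. It stood at 26.2 CPM in SO_L1 and 12.2 CPM in ASO_L1 in barcodes with fewer than 1000 genes, at 54.6 and 73.3 CPM in cells with 2% to 4% mitochondrial UMIs (156 and 306 cells), and at 5.58 and 8.16 CPM in cells with 20% or more (472 and 530 cells). In SO_L1 the barcodes with fewer than 1000 genes had a higher level than the whole described range (4.70 CPM), and in ASO_L1 a lower one (19.8 CPM). The other cells alone, from which the rule had taken the highest, stood at 1.38 and 11.4 CPM.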

How the results depend on the processing

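Over 15 alternatives, p53 targets higher numbered 24 to 38 in SO_L1 and 27 to 33 in ASO_L1. The 38 came with no minimum of UMIs, where more of the 46 listed targets were counted. With the minimum kept, the highest number in SO_L1 was 34. The share of CDKN1A-high cells also in an equally large set of top cells by p53 sum ranged from 37.4% to 49.8% and from 41.4% to 56.0%. It was 56% in ASO_L1 with the 10% highest taken and 41.4% there when chosen on thinned cells (10.1% of cells), both larger sets than 5%, and 37.4% (SO_L1) and 42.9% (ASO_L1) when chosen within deciles of UMIs.

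Counts over all genes moved more, and the cause was not tested. With the 2% highest, SO_L1 had 1921 genes higher and 409 lower, both libraries 905 and 157, and ASO_L1 over SO_L1 CDKN1A-high cells 1325 higher and 1586 lower. With the 10% highest these were 354 and 18 in SO_L1 and 185 and 10 in both. Choice on thinned cells gave 129 lower in SO_L1 and 1185 higher and 1544 lower in ASO_L1. The mean over cells gave 1473 and 168 in SO_L1 and 809 and 60 in both. No minimum gave 12359 and 1116 in SO_L1, 13369 and 4438 in ASO_L1, 8798 and 328 in both and 6552 and 9311 between libraries, since genes of few UMIs then enter. With 1 threshold SO_L1 had 2203 and 535 and both 700 and 202. Among cells with 3 or more CDKN1A UMIs, chosen after seeing the data, 160 were lower in SO_L1 and 65 in both.

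Of 3900 recomputed ratios of 130 named genes, 3727 stayed within 1.5 times, 162 moved and 11 reversed. WDR93, at 0.361 in ASO_L1 from 9 UMIs, went to 1.19 (10% highest), 1.33 (thinned), 1.45 (deciles), 1.06 (mean over cells), 1.66 (no GATA3, TFAP2A or HAND1 cells), 1.0 (1 threshold, where SO_L1 had 1.01), 1.49 (6% to 20%) and 1.21 (20000 UMIs and more). GATA3 in SO_L1 went to 0.830 with choice within deciles and IL24 in SO_L1 to 0.155 as a mean over cells. Ratios of GDF15 ranged from 11.1 to 33.5 in SO_L1 and from 4.65 to 10.5 in ASO_L1, and those of MDM2 from 3.01 to 8.16 and from 2.93 to 5.90. ISG15 in SO_L1 ranged from 1.98 to 5.34, and CER1 there from 1.58 to 4.59. No paired analysis was possible because each group has 1 library. In SO_L1 few CDKN1A UMIs per cell limit who is chosen.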
